A study of Mus musculus with 84 samples.

Results

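The axon guidance ligands and receptors are the semaphorins, ephrins, Slits and netrins together with the plexins, neuropilins, Eph receptors, Robos, Dcc and Unc5 receptors. They were chosen by symbol: protein-coding genes starting with Sema, Nrp, Slit or Ntn and a digit, or with Plxn, Epha, Ephb, Efna, Efnb, Robo or Unc5, and Dcc, with the Slitrk genes left out. This gave 71 of the 55401 gene IDs in the count files, of which 35 are ligands and 34 are receptors. The other 2, Unc50 and Unc5cl, match the letters Unc5 but are not netrin receptors; they stay in every count and are kept apart from the families. The 3 antisense genes of Plxna4 also match the letters and were left out because they are not listed as protein coding. Of the 71 genes, 63 passed edgeR's filter on low counts and could be tested.

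Guidance ligands are secreted or membrane-bound proteins that attract or repel growing axons through receptors on the growth cone. Semaphorins signal through plexins, with neuropilins as the binding subunit for most class 3 members; ephrins signal through Eph receptor tyrosine kinases, Slits through Robos, and netrins through Dcc and the Unc5 receptors. In the adult cortex the same families remain expressed and act on dendritic spines, synapses and inhibitory contacts.

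RNA was sequenced from neuronal nuclei, sorted by the nuclear protein NeuN, of the frontal cortex of 129S6/SvEvTac mice aged 12 weeks. DOI (2,5-dimethoxy-4-iodoamphetamine) is a psychedelic agonist of serotonin 2A receptors. A vehicle group and 3 groups that had received DOI 24 h, 48 h or 7 days earlier were compared, with 4 mice per group and 2 libraries per mouse. The counts of the 2 libraries were summed, so the mouse is the replicate, and all DOI comparisons share the same 4 vehicle mice. Levels below are CPM, counts scaled to a common total by TMM, and log2 fold changes are given ± SE. A gene is said to have risen or fallen where edgeR's quasi-likelihood test gave a Benjamini-Hochberg adjusted p below 0.05 over the 17941 genes tested. Sorted nuclei are a mixture, so fewer cells of a type and less RNA per cell cannot be told apart.

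Totals per library ran from 2763704 to 7436451 counts. Per mouse the range was 9151680–11517452 for vehicle, 6441396–8090559 for the 24 h group, 5834248–7344355 for the 48 h group and 6972577–12354785 for the 7-day group. The level that 3 counts give was 0.243 to 0.514 CPM. The 6 pan-neuronal markers, Rbfox3 (NeuN) among them, summed to 4202 to 6392 CPM over the 16 mice, against 556 to 1177 CPM for 8 astrocyte markers, 173 to 389 CPM for 8 oligodendrocyte markers and 84 to 212 CPM for 8 microglia markers. No marker of any list was at 0 in every mouse. Several library measures moved with the groups. The share of counts on CT010467.1, a ribosomal RNA-like gene, was 0.00694–0.0101% in the vehicle mice, 0.328–1.57% at 24 h and 0.523–1.66% at 48 h. At 7 days it was 0.00834%, 0.633%, 0.00607% and 0.474% in mice 1 to 4, so that mice 1 and 3 were near the vehicle mice and mice 2 and 4 near the earlier DOI mice. The share on mitochondrial genes was 0.0171–0.0701% in vehicle mice, 0.0621–0.101% at 24 h and 0.108–0.268% at 48 h. In the 7-day mice it was 0.0413%, 0.13%, 0.021% and 0.114%. Among the 7 excitatory neuron markers Camk2a, singled out after its values were seen, held 151–222 CPM in vehicle mice, 622–2126 at 24 h and 1167–1876 at 48 h. The 7-day mice held 128, 1176, 164 and 1005 CPM of it. The other 6 excitatory markers together gave 293–363 CPM in vehicle mice, 270–331 at 24 h and 255–311 at 48 h. In 7-day mice 1 to 4 these 6 gave 374, 211, 285 and 250 CPM. The 8 striatal markers were highest in 7-day mice 2 and 4, at 1919 and 1420 CPM, against 264 to 682 CPM in the other 14 mice. The part of these measures in the results below was not tested. Group explained 75.1% of the variance of the log2 share of CT010467.1 and 56.9% of that of the mitochondrial share. Group and these measures therefore cannot be fully told apart.

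**Figure D1:**
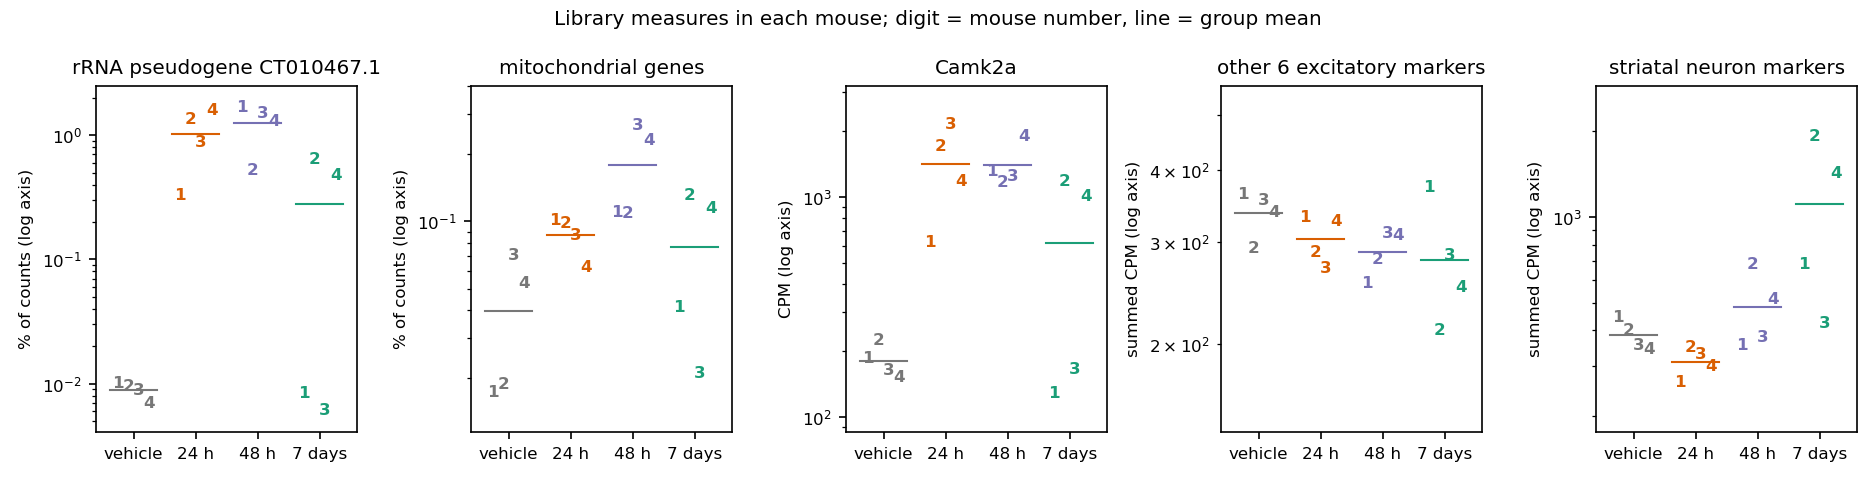
Each digit is a mouse (1 to 4) and each line a group mean, for the share of counts on CT010467.1 and on mitochondrial genes (percent, log axes) the CPM of Camk2a, and the summed CPM of the other 6 excitatory and of the striatal neuron markers (log axes). The 4 vehicle mice and 7-day mice 1 and 3 lie at 0.00607% to 0.0101% for CT010467.1, the other 10 mice at 0.328% to 1.66%; for Camk2a the same mice lie at 128 to 222 CPM and 622 to 2126 CPM, and for the other 6 excitatory markers they overlap.

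In vehicle mice the receptors held the highest levels per length of exon (CPM per kb). Ephb6, an Eph receptor whose kinase domain is inactive, led with 109.6 ± 26.5 CPM per kb (SD, n = 4), followed by Epha4 at 41.4 ± 2.9, Epha7 at 39.8 ± 3.28 and Epha5 at 21.1 ± 3.36. Epha4, which binds ephrins of both classes, and Epha7 did not differ beyond their spread. The semaphorins Sema4a (18.2 ± 4.74) and Sema4f (16.4 ± 2.2) were the highest ligands and also overlapped each other. Among the plexins Plxna2 held 14.5 ± 0.98 CPM per kb and Plxnb1 0.231 ± 0.035. Robo2 led the Robos at 12.1 ± 1.5 CPM per kb. Netrin-1, encoded by Ntn1 and the best-known Dcc ligand, was near the limit of these data at 0.103 ± 0.058 CPM per kb, while Ntn3 and Ntn4 held 6.59 ± 0.97 and 4.61 ± 0.65. Unc50, a Golgi membrane protein that is no guidance receptor, had the highest value of the 71 genes at 163 ± 24.6 CPM per kb.

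**Figure D2:**
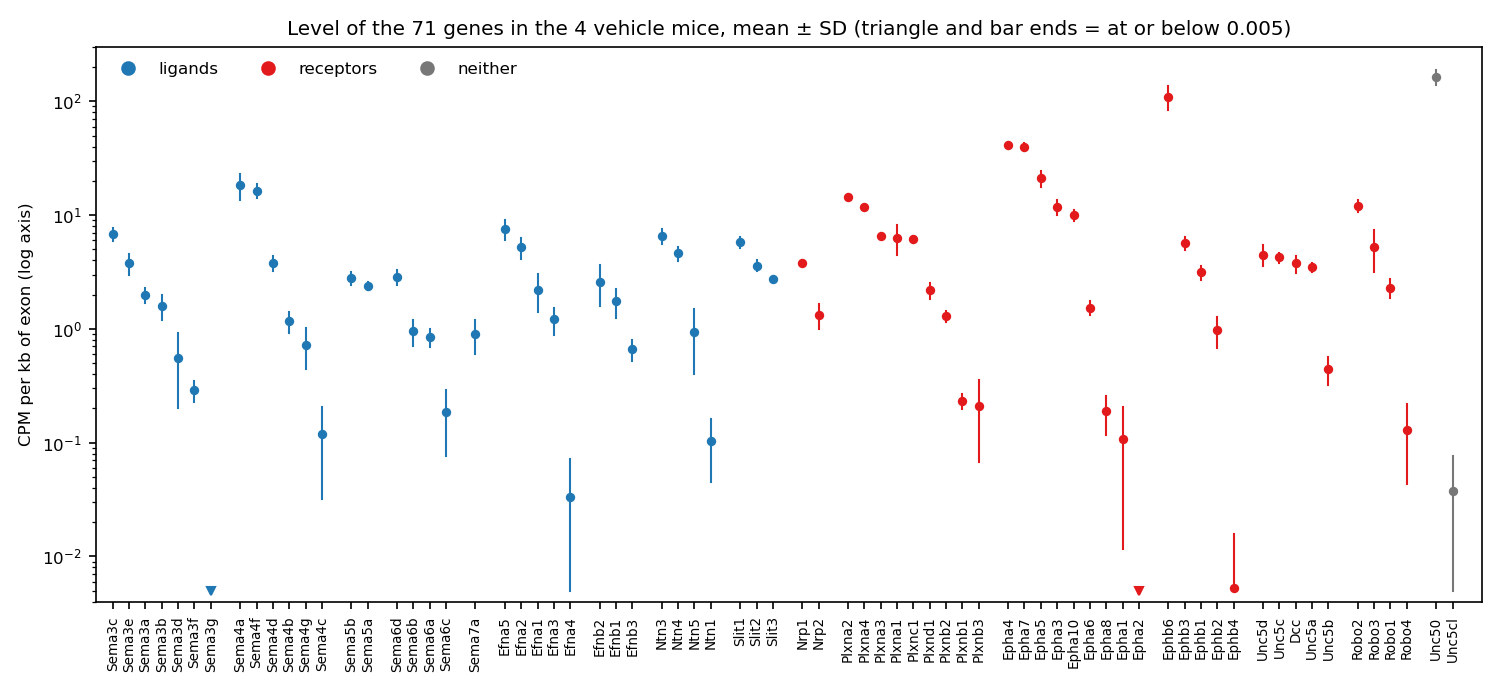
Mean and SD over the 4 vehicle mice of each of the 71 genes, in CPM per kb of exon on a log axis, grouped by family. Ephb6 at 109.6 CPM per kb stands above all other receptors, and Sema3g and Epha2 had no count in any vehicle mouse.

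The first question was whether guidance genes differed from vehicle 24 h and 48 h after DOI. At 24 h 18 of the 63 tested members passed, 12 higher and 6 lower (28.6%), where 24.2% of all tested genes passed (13.8% higher, 10.4% lower). At 48 h 20 passed, 14 higher and 6 lower (31.7%), against 30.1% of all tested genes (16.8% higher, 13.3% lower). Of the tested protein-coding genes alone 24% passed at 24 h (11.4% higher, 12.6% lower) and 29.8% at 48 h (13.8% higher, 16% lower). In this fit both member shares are near the background, so the number of members that passed is not a result about guidance genes. When only the 24 h and vehicle mice were fitted, 31 of 62 members passed (50%), against 36.7% of all tested genes. The same fit at 48 h gave 29 of 62 (46.8%, against 41.5%). Whether members and other genes differ in these shares was not tested. The median log2 fold change of the tested members was 0.34 at 24 h and 0.32 at 48 h, beside 0.03 and 0.02 for all tested genes and -0.08 and -0.11 for the protein-coding ones. Of the members, 14 passed at both times with the same sign, 4 only passed at 24 h and 6 only passed at 48 h, but none differed between 24 h and 48 h. With totals in place of TMM scaling, which moved the median of all genes to 0.14 at 24 h and 0.12 at 48 h, the splits were 17 higher and 2 lower at 24 h and 16 higher and 4 lower at 48 h. Of all tested genes this scaling called 16.1% higher and 7.82% lower at 24 h and 18.9% and 10.6% at 48 h. The groups did not overlap for 18 members higher and 9 lower at 24 h (18.5% and 17.2% of all tested genes) and for 16 higher and 9 lower at 48 h (19.2% and 19% of all tested genes).

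Of 32 tested ligands 9 rose and 3 fell at 24 h (37.5%, beside the 24.2% of all tested genes), with a median log2 fold change of 0.55. At 48 h 8 rose and 4 fell (37.5%, beside 30.1%), with a median of 0.39. Of 30 tested receptors 3 rose and 2 fell at 24 h (16.7%) and 6 rose and 1 fell at 48 h (23.3%), with medians of 0.06 and 0.22. At 24 h DESeq2 called 9 receptors (30%) and 15 ligands (46.9%), against 30.2% of all genes. At 48 h it called 9 (30%) and 14 (43.8%), against 35.3%. With only the groups compared, 12 of 30 receptors (40%) and 18 of 31 ligands (58.1%) passed at 24 h, against 36.7%. At 48 h these were 11 (36.7%) and 17 (54.8%), against 41.5%. Neither the difference between ligands and receptors nor that from all genes was tested. Without vehicle mouse 1 or without vehicle mouse 2 the 24 h count of members was 8, where 13.9% and 14.1% of all tested genes passed. Without 24 h mouse 2 it was 11 (18.6% of all genes) and without 24 h mouse 4 it was 10 (13.9%). At 48 h it was 12 without vehicle mouse 1 (19%). With the log2 share of CT010467.1 as a covariate no member passed at 24 h or 48 h with edgeR (4 at an unadjusted p below 0.05 at each time), and none of all tested genes did (870 and 685 unadjusted). With the mitochondrial share 6 members (9.52%) passed at 24 h and 0 at 48 h (26 and 15 unadjusted), where 12.6% of all tested genes passed at 24 h and 0 at 48 h (2720 unadjusted). With the first of these covariates the sign turned at both times in 7 members refitted singly: Sema7a, Plxna1, Plxna2, Efna2, Efnb2, Sema4a and Nrp1. Sema7a went to -0.711 and -0.996 (edgeR adjusted p = 0.963 and 0.996). All values turned by this covariate had an edgeR adjusted p of 0.961 or more, so their signs are not established. The sign turned at 24 h alone in Ephb6 and at 48 h alone in Epha4 and Robo2.

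**Figure D3:**
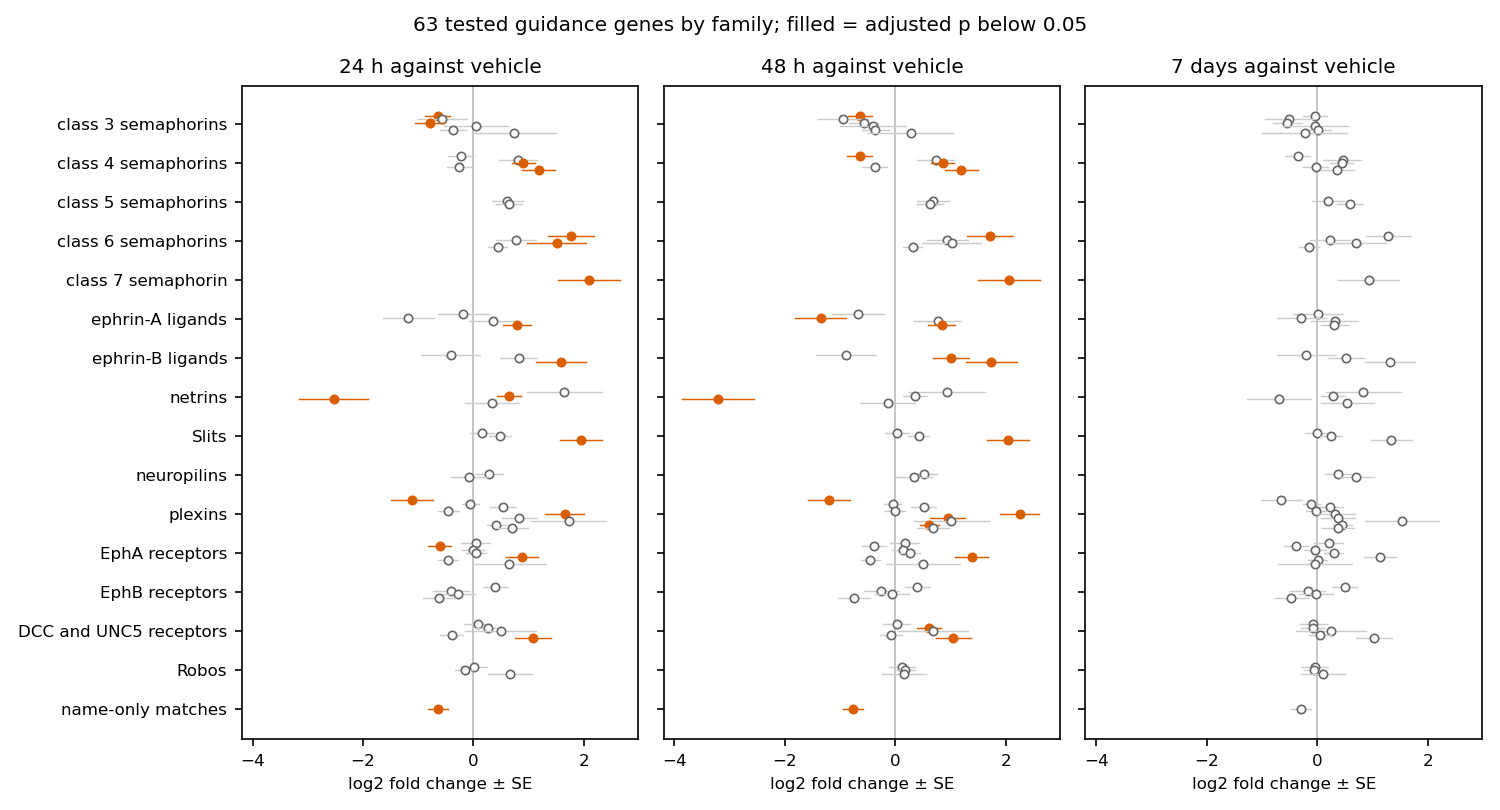
Log2 fold change against vehicle with its SE for the 63 tested genes, by family, at 24 h, 48 h and 7 days; filled points passed at an adjusted p below 0.05. Slit3, Sema7a, Sema6a and Plxnb1 lie on the right and Ntn4 on the left at 24 h and 48 h, and no point is filled at 7 days.

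Promoters are shown for 2 ligands that rose and 2 receptors of their families, to let the sequence upstream of members that moved the same way be compared. The RefSeq table (GRCm38.p6) held 77 promoters for 61 of the 71 genes, and the 250 bases before the start were searched on both strands. The first 2 are Sema7a (chr9:57939862-57940111, + strand) and its receptor Plxnc1 (chr10:94944846-94945095, - strand); the next are Efna5 (chr17:62881318-62881567, - strand), an ephrin-A ligand, and the EphA receptor Epha6 (chr16:60605532-60605781, - strand). Capitals mark the GC box GGGCGG and the EGR-type motif GCGNGGGCG on either strand. The sequences run from 5′ to 3′ toward the start site:
Sema7a: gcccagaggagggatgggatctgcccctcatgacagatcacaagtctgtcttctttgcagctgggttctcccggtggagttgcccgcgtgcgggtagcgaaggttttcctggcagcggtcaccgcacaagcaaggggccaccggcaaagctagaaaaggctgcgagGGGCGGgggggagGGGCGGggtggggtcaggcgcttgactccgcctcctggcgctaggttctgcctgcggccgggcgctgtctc
Plxnc1: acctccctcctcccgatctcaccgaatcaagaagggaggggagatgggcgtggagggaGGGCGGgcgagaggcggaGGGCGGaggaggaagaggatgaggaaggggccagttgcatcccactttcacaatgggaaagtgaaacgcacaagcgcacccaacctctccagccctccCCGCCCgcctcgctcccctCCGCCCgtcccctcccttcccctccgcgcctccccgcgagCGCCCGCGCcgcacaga
Efna5: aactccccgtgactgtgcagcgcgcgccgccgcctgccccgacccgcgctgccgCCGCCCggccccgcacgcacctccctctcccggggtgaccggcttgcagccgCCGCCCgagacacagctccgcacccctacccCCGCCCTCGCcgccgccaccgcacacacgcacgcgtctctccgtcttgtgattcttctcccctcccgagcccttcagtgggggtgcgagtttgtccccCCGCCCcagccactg
Epha6: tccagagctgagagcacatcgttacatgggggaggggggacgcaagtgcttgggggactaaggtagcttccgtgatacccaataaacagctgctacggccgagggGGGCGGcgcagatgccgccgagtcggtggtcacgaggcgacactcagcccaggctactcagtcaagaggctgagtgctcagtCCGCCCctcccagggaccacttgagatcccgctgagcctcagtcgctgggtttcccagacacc

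The windows held 17 CpG in Sema7a, 22 in Plxnc1, 32 in Efna5 and 15 in Epha6, beside medians of 15 in member promoters, 14 in those of tested genes and 6 in all. Each held at least 1 GC box. GGGCGG was in 55 of the 77 member promoters (71.4%), 54.1% of the promoters of tested genes and 32.7% of all 32851 promoters. GCGNGGGCG, which can share letters with a GC box, was in 12 of 77 (15.6%), in 8.42% of the promoters of tested genes and in 4.7% of all; Efna5 and Plxnc1 held it. The cAMP response element TGACGTCA was in 1 member promoter (1.3%, against 2.5% of tested genes and 1.55% of all). The AP-1 type motif TGANTCA was in 3 (3.9%, against 4.48% and 6.75%) and TATAAA in 2 (2.6%, against 6.91% and 12.4%). Median GC content was 64.4% in member promoters, 59.2% in those of tested genes and 52.4% in all. These matches describe letters, not binding.

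Sema7a and Sema6a were among the members that rose most. Sema7a, a glycolipid-anchored semaphorin that binds Plxnc1 and integrins, had 3.97, 2.62, 1.77 and 3.5 CPM in vehicle mice 1 to 4, 12.6, 13.5, 14.8 and 9.94 at 24 h, 18, 8.2, 12.6 and 11 at 48 h and 1.78, 9.97, 0.817 and 10.3 at 7 days. All 8 mice of the 24 h and 48 h groups were above every vehicle mouse, while 7-day mice 1 and 3 were below the vehicle mean and mice 2 and 4 above the vehicle range. The log2 fold change was 2.1 ± 0.56 (BH-adjusted p = 0.0141) at 24 h and 2.06 ± 0.56 (BH-adjusted p = 0.0121) at 48 h. Sema6a, a transmembrane ligand of Plxna2 and Plxna4, held 6.7, 7.16, 6.48 and 9.34 CPM in vehicle mice, 31.1, 27.2, 21.1 and 21.9 at 24 h, 10.7, 34.3, 26.7 and 25.4 at 48 h and 8.04, 24.3, 7.94 and 32.7 at 7 days. Again no 24 h or 48 h mouse fell within the vehicle range, and 48 h mouse 1 was nearest to it. Its log2 fold change was 1.77 ± 0.42 (BH-adjusted p = 0.00744) at 24 h and 1.71 ± 0.42 (BH-adjusted p = 0.00704) at 48 h. The calls of Sema7a and Sema6a held in 8 of 8 fits that left out 1 mouse at each time. Sema6c, another class 6 member, rose at 24 h by 1.5 ± 0.54 (BH-adjusted p = 0.0486), from the low counts of a gene at 0.472–1.87 CPM in vehicle mice, and not at 48 h (1.02 ± 0.54, BH-adjusted p = 0.157). Sema6d, the class 6 member with the highest vehicle level, did not pass at either time. It held 26.3, 26.4, 34.9 and 33 CPM in vehicle mice, 37.3, 42.9, 37.4 and 45.8 at 24 h, 38.4, 38.3, 38.5 and 35.2 at 48 h and 30.3, 28.5, 22.3 and 27.7 at 7 days. All 24 h and 48 h mice were above all vehicle mice. Its log2 fold changes were 0.44 ± 0.17 (BH-adjusted p = 0.0694) and 0.32 ± 0.17 (BH-adjusted p = 0.165).

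Among class 4 semaphorins 2 of 5 tested members rose at both times. They are Sema4d, the ligand of Plxnb1, and Sema4g, and their values are given because of that pairing, chosen after the values were seen. Sema4d held 32.5, 31.8, 29.6 and 23.1 CPM in vehicle mice, 47.2, 65.8, 49.6 and 56.5 at 24 h, 55.6, 45.2, 42 and 69.1 at 48 h and 34.1, 41.4, 32.1 and 52 at 7 days, with log2 fold changes of 0.91 ± 0.21 (BH-adjusted p = 0.00682) at 24 h and 0.86 ± 0.21 (BH-adjusted p = 0.00711) at 48 h. Every 24 h and 48 h mouse was above every vehicle mouse. Sema4g went from 4.42–9.78 CPM in vehicle mice to 12.2–16.6 at 24 h and 11.7–18.1 at 48 h, with log2 fold changes of 1.18 ± 0.29 (BH-adjusted p = 0.00981) and 1.2 ± 0.29 (BH-adjusted p = 0.00726). Sema4a, a transmembrane semaphorin with the highest vehicle level of its class, fell at 48 h and did not pass at 24 h. It held 134, 101, 78 and 81 CPM in vehicle mice, 73, 97.2, 78.5 and 87.6 at 24 h, 53.9, 63.6, 66.4 and 67.8 at 48 h and 110.0, 50.1, 89.3 and 58.9 at 7 days. The 48 h mice were all below the vehicle mice and the 24 h mice were not; the log2 fold change was -0.65 ± 0.23 (BH-adjusted p = 0.0421) at 48 h and -0.23 ± 0.23 (BH-adjusted p = 0.487) at 24 h. That call ended in 6 of 8 fits that left out 1 mouse and held without vehicle mouse 3 or 4, with adjusted p up to 0.163, and it also ended with totals as the scaling.

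Of the 6 tested class 3 semaphorins, which are secreted, 2 fell at 24 h and 1 at 48 h, and none rose. Sema3a, which repels axons through Nrp1 and A-type plexins, held 27.5, 23.2, 33.2 and 26 CPM in vehicle mice, 21.3, 17, 19.5 and 12.6 at 24 h, 19.3, 13.2, 19.4 and 18.6 at 48 h and 33.1, 29.2, 22.3 and 22.4 at 7 days. All 24 h and 48 h mice were below all vehicle mice, with log2 fold changes of -0.64 ± 0.23 (BH-adjusted p = 0.0443) and -0.64 ± 0.23 (BH-adjusted p = 0.0396). Sema3c, which binds both neuropilins, held 47.8, 45.1, 43.6 and 57.9 CPM in vehicle mice, 32.3, 27.1, 31.6 and 21.1 at 24 h, 50.9, 16.2, 28.6 and 34.7 at 48 h and 30.1, 29.4, 34.7 and 39.6 at 7 days. It fell at 24 h (-0.8 ± 0.26, BH-adjusted p = 0.0341) and did not pass at 48 h (-0.57 ± 0.26, BH-adjusted p = 0.0987), where mouse 1 at 50.9 CPM lay within the vehicle range. Without that mouse it passed at 48 h (-0.89, adjusted p = 0.0183), and over the 8 fits that left out 1 mouse the 48 h value ran from -0.89 to -0.35. The median of the 6 genes was -0.47 at 24 h and -0.49 at 48 h. The 3 calls are close to the threshold. Sema3a kept its 24 h call in 1 of 8 fits that left out 1 mouse (without 24 h mouse 1) and its 48 h call in 2 of 8 (without vehicle mouse 2 or 48 h mouse 1), with adjusted p up to 0.134 and 0.121. Sema3c kept its call in 2 of 8 (without 24 h mouse 1 or 3), up to 0.102. None of the 3 calls held with totals as the scaling. The class 5 genes, whose products carry thrombospondin repeats, did not pass. Sema5b held 23.4, 18, 20.0 and 17.7 CPM in vehicle mice, 25.9, 38.5, 27.3 and 32.1 at 24 h, 20.1, 47.5, 28.6 and 25.9 at 48 h and 32.5, 27.8, 27 and 32.6 at 7 days. Its 24 h and 7-day mice were above all vehicle mice, and the log2 fold changes were 0.64 ± 0.24 (BH-adjusted p = 0.0548) at 24 h and 0.62 ± 0.24 (BH-adjusted p = 0.0538) at 48 h. Without 48 h mouse 1 Sema5b passed at 48 h (adjusted p = 0.0259), and with 1 mouse left out that value ran from 0.33 to 0.77.

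**Figure D4:**
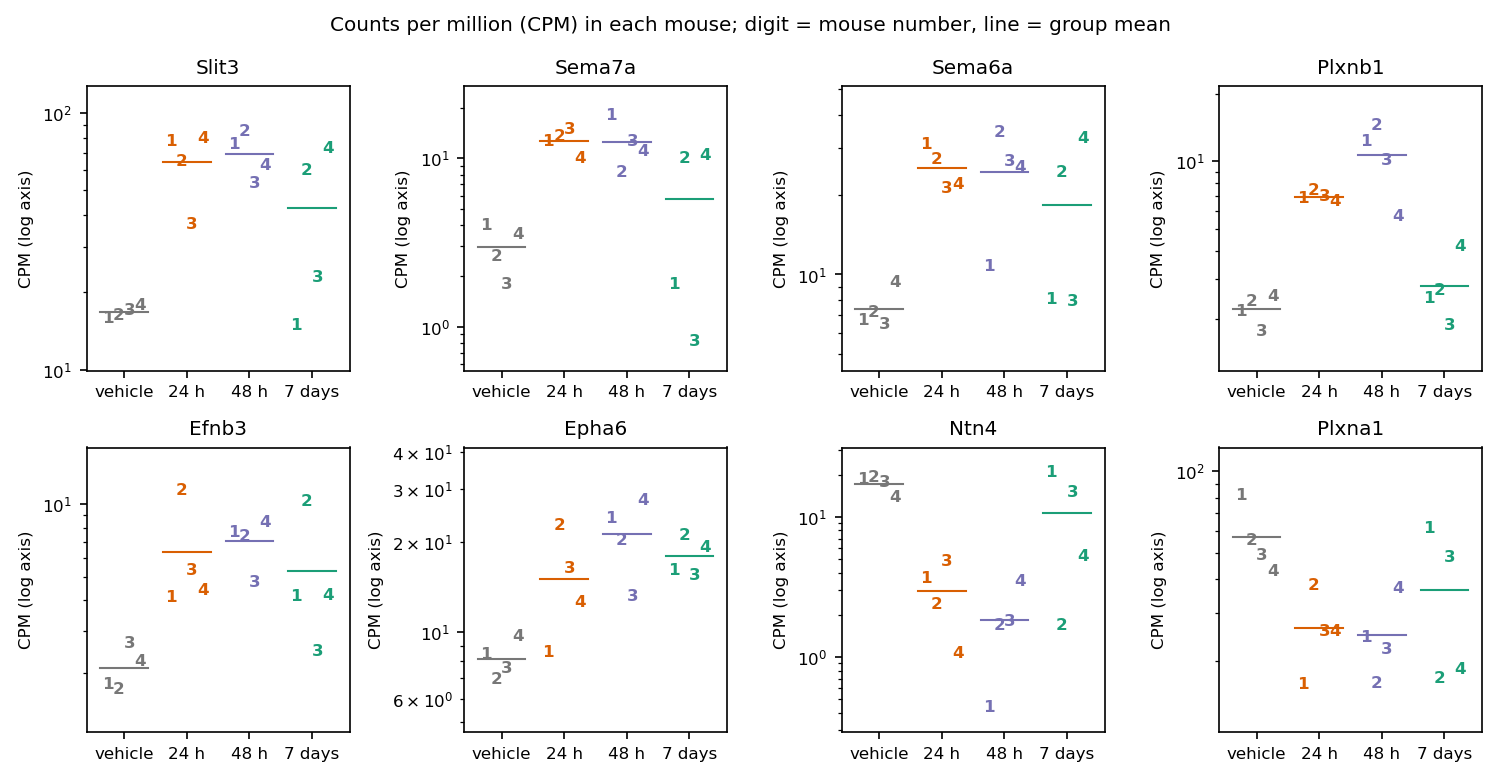
CPM of 8 members in each mouse on log axes; digits are mouse numbers and lines group means. Slit3, Sema7a, Sema6a, Plxnb1 and Efnb3 have 24 h and 48 h mice above all vehicle mice, Ntn4 and Plxna1 have them below, and for Slit3, Sema7a, Sema6a, Ntn4 and Plxna1 7-day mice 2 and 4 lie apart from 7-day mice 1 and 3.

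Plexins, the semaphorin receptors, moved in both directions. Plxnb1 held 2.17, 2.39, 1.77 and 2.53 CPM in vehicle mice, 6.85, 7.44, 6.97 and 6.63 at 24 h, 12.3, 14.4, 10.1 and 5.72 at 48 h and 2.46, 2.69, 1.87 and 4.2 at 7 days. The 24 h mice lay close together, all above the vehicle mice, and 48 h mouse 4 was the lowest of its group but also above them. Its log2 fold change was 1.65 ± 0.35 (BH-adjusted p = 0.00464) at 24 h and 2.25 ± 0.36 (BH-adjusted p = 0.00155) at 48 h, and both calls held in 8 of 8 fits that left out 1 mouse. The gene lies at chr9:109095389-109119917 (+ strand) and shares 2.68% of its exon bases with a gene on the other strand, from which reads could not be separated because counting used no strand. Plxnb2 rose at 48 h (0.95 ± 0.31, BH-adjusted p = 0.0294) and did not pass at 24 h (0.83 ± 0.31, BH-adjusted p = 0.0595). The same held for Plxnc1, with 0.62 ± 0.17 (BH-adjusted p = 0.0143) and 0.42 ± 0.17 (BH-adjusted p = 0.084). Plxnc1, the receptor of Sema7a, had 48.8–57 CPM in vehicle mice and 67–93.4 at 48 h, with no overlap.

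Plxna1, a signalling partner of the neuropilins, fell. It held 81.6, 55.7, 48.9 and 42.5 CPM in vehicle mice, 16.3, 37.8, 25.6 and 25.6 at 24 h, 24.3, 16.4, 21.9 and 36.8 at 48 h and 61.7, 17.1, 47.9 and 18.5 at 7 days. No 24 h or 48 h mouse reached the lowest vehicle mouse, and 7-day mice 2 and 4 were below it as well. The log2 fold change was -1.12 ± 0.38 (BH-adjusted p = 0.0386) at 24 h and -1.2 ± 0.38 (BH-adjusted p = 0.0246) at 48 h. The 24 h call held in 2 of 8 fits that left out 1 mouse (without vehicle mouse 4 or 24 h mouse 2; adjusted p up to 0.126) and ended with totals as the scaling, and the 48 h call held in 4 of 8, ending without vehicle mouse 1 or 48 h mouse 1, 2 or 3 (up to 0.0881). Plxna1 shares 10.7% of its exon bases with Gm26811 on the other strand. Plxna2, the most abundant plexin, held 236, 264, 232 and 263 CPM in vehicle mice, 244, 260.1, 238 and 214 at 24 h, 266, 206, 256 and 237 at 48 h and 285, 202, 231 and 209 at 7 days. The log2 fold changes were -0.06 ± 0.15 (BH-adjusted p = 0.801) and -0.04 ± 0.15 (BH-adjusted p = 0.848). Both turn positive with totals as the scaling (0.045 and 0.052). Neither neuropilin passed. Nrp1 had 38, 34.6, 37.9 and 39.3 CPM in vehicle mice, 42.3, 54.8, 30.2 and 55.3 at 24 h, 65.5, 34.6, 71.9 and 42.1 at 48 h and 51.9, 56.9, 34.9 and 50.9 at 7 days. Against vehicle this gave 0.28 ± 0.24 (BH-adjusted p = 0.404) and 0.52 ± 0.24 (BH-adjusted p = 0.112). Among the plexins not yet named, Plxna3, Plxna4, Plxnb3 and Plxnd1 did not pass at either time.

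Of the 3 ephrin-B ligands 1 rose at 24 h and 2 at 48 h, and the ephrin-A ligands divided. Efnb3 is a transmembrane ephrin known from the spinal cord midline. It held 1.79, 1.71, 2.65 and 2.24 CPM in vehicle mice and 4.11, 11.5, 5.33 and 4.38 at 24 h. At 48 h it held 7.68, 7.37, 4.74 and 8.38 CPM, and at 7 days 4.15, 10.3, 2.45 and 4.2. All 24 h and 48 h mice were above the vehicle mice, 24 h mouse 2 most. The log2 fold change was 1.58 ± 0.46 (BH-adjusted p = 0.0191) at 24 h and 1.74 ± 0.46 (BH-adjusted p = 0.0101) at 48 h; the 24 h call ended without vehicle mouse 1 or 2 or 24 h mouse 2 (adjusted p up to 0.0866) and the 48 h call held in 8 of 8 such fits. Efnb2, the ephrin-B with the highest level, held 12.4, 11.5, 22.3 and 25.1 CPM in vehicle mice, 27.3, 42.4, 26.8 and 29.1 at 24 h, 27.4, 41.9, 27.6 and 46.5 at 48 h and 16.5, 34.3, 14.9 and 37.1 at 7 days. Its values at both times were above all vehicle mice, the lowest by little, and the log2 fold change was 0.81 ± 0.33 (BH-adjusted p = 0.0757) at 24 h and 1.01 ± 0.33 (BH-adjusted p = 0.0287) at 48 h. That 48 h call ended without vehicle mouse 1 or 2 or 48 h mouse 2 or 4 (adjusted p up to 0.0949). Efnb1 did not pass, with -0.9 ± 0.54 (BH-adjusted p = 0.215) at 48 h.

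Efna5, a repellent cue in topographic maps and the most abundant ephrin-A here, held 32, 26.3, 25.1 and 38 CPM in vehicle mice, 52.5, 41.4, 69.5 and 46.2 at 24 h, 51.1, 57.6, 50.7 and 57.7 at 48 h and 21.3, 48, 29.9 and 51.9 at 7 days. The 24 h and 48 h mice were all above the vehicle mice, with log2 fold changes of 0.79 ± 0.25 (BH-adjusted p = 0.0304) and 0.84 ± 0.25 (BH-adjusted p = 0.0194). The 24 h call held in 3 of 8 fits that left out 1 mouse (without vehicle mouse 4 or 24 h mouse 2 or 4; adjusted p up to 0.1) and the 48 h call in 6 of 8, ending without vehicle mouse 2 or 3 (up to 0.0614). Efna2, another ephrin-A, held 14.4, 10.2, 10.7 and 9.15 CPM in vehicle mice, 2.29, 7.29, 6.59 and 3.43 at 24 h, 4.06, 4.52, 3.41 and 5.45 at 48 h and 17.7, 6.39, 9.57 and 2.66 at 7 days. Both groups were below all vehicle mice, but only the 48 h difference passed (-1.35 ± 0.46, BH-adjusted p = 0.0354, against -1.18 ± 0.46, BH-adjusted p = 0.0659 at 24 h), and that call held in 2 of 8 fits that left out 1 mouse, without vehicle mouse 4 or 48 h mouse 4 (adjusted p up to 0.0975). Efna1 and Efna3 did not pass.

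Of the 11 tested Eph receptors 1 rose at 24 h and 48 h and 1 fell at 24 h. Epha6 was the receptor that rose, with 8.4, 6.94, 7.57 and 9.63 CPM in vehicle mice, 8.53, 22.6, 16.4 and 12.6 at 24 h, 23.9, 20.2, 13.2 and 27.5 at 48 h and 16.1, 21, 15.4 and 19.2 at 7 days. The 48 h and 7-day mice were all above the vehicle mice, and 24 h mouse 1 lay among them. The log2 fold change was 0.88 ± 0.29 (BH-adjusted p = 0.0358) at 24 h, which held in 1 of 8 fits that left out 1 mouse (without 24 h mouse 1; adjusted p up to 0.141), and 1.38 ± 0.29 (BH-adjusted p = 0.00358) at 48 h, which held in 8 of 8. Epha3 fell at 24 h (-0.61 ± 0.21, BH-adjusted p = 0.0428), with 55.9–76 CPM against 83.6–117 in vehicle mice, and did not pass at 48 h (-0.39 ± 0.21, BH-adjusted p = 0.172). Epha4 held 365, 312, 320.4 and 335 CPM in vehicle mice, 295, 368, 395 and 269.7 at 24 h, 368, 249, 432 and 422 at 48 h and 302, 429.5, 239 and 328 at 7 days. Its log2 fold changes were -0.01 ± 0.20 (BH-adjusted p = 0.988) and 0.14 ± 0.20 (BH-adjusted p = 0.623). The sign at 24 h turned with the scaling and other settings. Ephb6 held 560.0, 396, 350.4 and 348 CPM in vehicle mice, 155, 358, 311 and 254 at 24 h, 247, 171, 255 and 313 at 48 h and 426, 224, 376 and 174 at 7 days. The 48 h mice were below all vehicle mice, yet the difference did not pass (-0.75 ± 0.29, BH-adjusted p = 0.0592). Without 48 h mouse 4 it did (-0.9, adjusted p = 0.0476). At 24 h it was -0.62 ± 0.29 (BH-adjusted p = 0.124). Epha7, likewise without overlap at both times, had -0.46 ± 0.17 (BH-adjusted p = 0.0601) and -0.46 ± 0.17 (BH-adjusted p = 0.0559). None of the 4 tested EphB receptors passed at either time.

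Of the 3 Slits, Slit3 rose. This secreted Robo ligand (chr11:35121224-35708507, + strand) held 15.8, 16.3, 17 and 17.8 CPM in vehicle mice, 77.2, 64.7, 36.9 and 79.3 at 24 h, 75.3, 85, 53.2 and 62.4 at 48 h and 14.8, 60.0, 22.9 and 72.6 at 7 days. Even the lowest 24 h mouse, at 36.9 CPM, was far above the highest vehicle mouse, and among 7-day mice numbers 2 and 4 were in the range of the earlier groups. The log2 fold change was 1.95 ± 0.38 (BH-adjusted p = 0.00329) at 24 h and 2.04 ± 0.38 (BH-adjusted p = 0.00207) at 48 h, and both calls held in 8 of 8 fits that left out 1 mouse. Slit1, the Slit with the highest level per length, held 39.3, 32.2, 33.6 and 31.5 CPM in vehicle mice, 33.8, 48.5, 34.4 and 35.4 at 24 h, 41.3, 27.4, 30.8 and 39.6 at 48 h and 41, 25.6, 43.2 and 26.9 at 7 days. It did not pass (0.15 ± 0.21, BH-adjusted p = 0.626 and 0.03 ± 0.22, BH-adjusted p = 0.932). Slit2 was above all vehicle mice at both times, 119–141 and 109–137 CPM against 78.2–103, without passing (0.48 ± 0.19, BH-adjusted p = 0.0745 and 0.42 ± 0.19, BH-adjusted p = 0.103). The receptors did not pass. Robo2 had 209, 180.2, 194 and 239.7 CPM in vehicle mice, 193, 169, 224 and 157 at 24 h, 287, 231, 214 and 195 at 48 h and 150.1, 192, 206 and 244 at 7 days. The differences were -0.15 ± 0.18 (BH-adjusted p = 0.576) and 0.17 ± 0.18 (BH-adjusted p = 0.497). Robo1 had 0.01 ± 0.23 (BH-adjusted p = 0.977) and 0.12 ± 0.23 (BH-adjusted p = 0.73), and Robo3 0.66 ± 0.40 (BH-adjusted p = 0.231) and 0.15 ± 0.40 (BH-adjusted p = 0.792).

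Ntn4 fell most of all tested members. It encodes a laminin-related netrin of basement membranes and lies at chr10:93640681-93747207 (+ strand), with no exon base shared with another gene. Its level was 18.6, 19.1, 17.6 and 13.7 CPM in vehicle mice, 3.65, 2.38, 4.82 and 1.06 at 24 h, 0.435, 1.67, 1.78 and 3.46 at 48 h and 20.8, 1.68, 14.9 and 5.18 at 7 days. The highest 24 h or 48 h mouse, at 4.82 CPM, was far below the lowest vehicle mouse, at 13.7 CPM; 7-day mice 1 and 3 were in or above the vehicle range and mice 2 and 4 below it. The log2 fold change was -2.53 ± 0.62 (BH-adjusted p = 0.00944) at 24 h and -3.21 ± 0.66 (BH-adjusted p = 0.00287) at 48 h, and both calls held in 8 of 8 fits that left out 1 mouse. Netrin-4 is also made by vessels, whose nuclei a sort for NeuN does not select. For the sum of 8 endothelial and mural markers the vehicle group gave 8.41–10.4 CPM, the 24 h group 9.08–22.2, the 48 h group 7.05–15.8 and the 7-day group 6.78–9.57. Cldn5 and Flt4 were at 0 in all vehicle mice, and Pdgfrb, a mural marker, held most of the vehicle sum at 6.71 to 8.35 CPM. The part of vessel RNA in the level of Ntn4 was not tested.

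Ntn3, the netrin with the highest level, rose at 24 h. It held 30.3, 31.3, 41.1 and 32.1 CPM in vehicle mice, 54.5, 47.2, 51.4 and 56.6 at 24 h, 25.1, 57.4, 47.4 and 42.4 at 48 h and 37.1, 34.6, 48.5 and 44.8 at 7 days. The 24 h mice were all above the vehicle mice, and 48 h mouse 1 was below them; the log2 fold change was 0.64 ± 0.22 (BH-adjusted p = 0.04) at 24 h and 0.35 ± 0.22 (BH-adjusted p = 0.22) at 48 h. With 1 mouse left out the 48 h value ran from 0.19 to 0.53; the highest came without 48 h mouse 1, where it passed at an adjusted p that rounds to 0.05. The 24 h call held in 1 of 8 fits that left out 1 mouse, without vehicle mouse 3 (adjusted p up to 0.105), and 4.46% of the exon bases of Ntn3 are shared with neighbouring genes. Among the receptors, Unc5d, a repulsive netrin receptor that also binds the adhesion protein Flrt2, held 29.1, 42.4, 45.9 and 48.1 CPM in vehicle mice, 130.4, 60.0, 103 and 56.6 at 24 h, 68.4, 104, 72.8 and 96.5 at 48 h and 44, 106, 58.6 and 129.8 at 7 days. All 24 h and 48 h mice were above the vehicle mice, with log2 fold changes of 1.08 ± 0.32 (BH-adjusted p = 0.0222) and 1.05 ± 0.32 (BH-adjusted p = 0.0211). The 24 h call ended without vehicle mouse 1 or 2 or 24 h mouse 1 or 3 (adjusted p up to 0.0852) and the 48 h call without vehicle mouse 1 or 48 h mouse 2 (up to 0.0717). Unc5a rose at 48 h (0.61 ± 0.21, BH-adjusted p = 0.0379) and did not pass at 24 h (0.26 ± 0.21, BH-adjusted p = 0.381). Dcc, the attractive netrin receptor, held 38.3–58.2 CPM in vehicle mice, 45.5–60.7 at 24 h and 31.3–68 at 48 h, with log2 fold changes of 0.08 ± 0.24 (BH-adjusted p = 0.837) and 0.02 ± 0.24 (BH-adjusted p = 0.948), and Unc5c had -0.39 ± 0.20 (BH-adjusted p = 0.165) and -0.07 ± 0.20 (BH-adjusted p = 0.806). Unc50, the name-only match, fell from 313, 252, 229 and 234 CPM in vehicle mice to 192, 152, 167 and 148 at 24 h and 160.2, 139, 168 and 139 at 48 h (7-day mice held 249, 196, 242 and 148). The change was -0.64 ± 0.18 (BH-adjusted p = 0.0173) and -0.76 ± 0.18 (BH-adjusted p = 0.00608). The 24 h call ended without vehicle mouse 1 or 24 h mouse 4 (adjusted p up to 0.0624).

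The 8 members that could not be tested were Sema3g, Sema4c, Epha1, Epha2, Ephb4, Efna4, Robo4 and Unc5cl. None of them had more than 22 counts in a mouse, a maximum that Epha1 reached at 48 h. Epha2 had 2 counts in 1 mouse and 0 in the other 15. Sema3g had 0 counts in all vehicle mice, 5, 1, 0 and 0 at 24 h, 9, 2, 2 and 8 at 48 h, and 2, 0, 0 and 0 at 7 days. Ephb4 had 0, 0, 0 and 1 counts in vehicle mice, 2, 0, 2 and 0 at 24 h, 2, 1, 3 and 1 at 48 h, and 0, 0, 0 and 1 at 7 days. In CPM all 48 h mice were above all vehicle mice for both genes, as for 19.2% of all tested genes. For Ephb4 the lowest 48 h mouse (0.133 CPM) and the highest vehicle mouse (0.0973 CPM) had 1 count each. They differ in CPM only by their scaled totals, and both are below the level of 3 counts. The 48 h differences of Sema3g and Ephb4 were not tested.

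The members that rose or fell were also described by length. The 63 tested members spanned a median of 106.5 kb of genome, against 26.8 kb for tested protein-coding genes, and their exons summed to a median of 7080 bases against 4655. At 48 h the protein-coding genes that rose had a median span of 45.3 kb and those that fell 21.2 kb; the 14 members that rose had 82.4 kb and the 6 that fell 35.8 kb. At 24 h the order of the members was the other way, with 66.4 kb for the 12 that rose and 131 kb for the 6 that fell, beside 38.3 kb and 25.8 kb for protein-coding genes.

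The cytoplasmic and membrane partners of these pathways were listed apart, 70 genes of which 68 could be tested. At 24 h 23 rose and 9 fell (47.1%, against 24.2% of all tested genes) and at 48 h 26 rose and 11 fell (54.4%, against 30.1%), with a median log2 fold change of 0.42 and 0.5. With the log2 share of CT010467.1 as a covariate none passed at either time with edgeR (4 at an unadjusted p below 0.05 at each), and without 24 h mouse 4 the 24 h count was 20, where 13.9% of all tested genes passed. The partner lists were drawn up with earlier results of these data known, so their share is not independent of that choice. Mical2, an actin-oxidising enzyme whose family acts downstream of plexins, held 112, 151, 154 and 132 CPM in vehicle mice, 451, 342, 337 and 378 at 24 h, 557, 500.0, 480.4 and 353 at 48 h and 142, 388, 174 and 455 at 7 days. Every 24 h and 48 h mouse was above every vehicle mouse, and the log2 fold change was 1.46 ± 0.29 (BH-adjusted p = 0.00356) at 24 h and 1.79 ± 0.29 (BH-adjusted p = 0.00158) at 48 h. Arhgef11, a RhoA activator that binds B-type plexins, went from 5.67, 9.78, 6.97 and 8.27 CPM in vehicle mice to 20.3, 20.2, 19.5 and 17.6 at 24 h and 30.4, 28.8, 22.2 and 19.7 at 48 h (7-day mice held 9.06, 13.9, 12.1 and 19). Its log2 fold changes were 1.34 ± 0.26 (BH-adjusted p = 0.00329) and 1.72 ± 0.26 (BH-adjusted p = 0.00153). These 2 genes kept their calls in 8 of 8 fits that left out 1 mouse at each time.

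The collapsin response mediators, cytosolic relays of Sema3a, did not all move one way: 3 of 5 rose at both times, 1 fell and Dpysl3 did not pass (-0.62 ± 0.30, BH-adjusted p = 0.133 and -0.7 ± 0.30, BH-adjusted p = 0.0827). Dpysl2 rose by 1.33 ± 0.32 (BH-adjusted p = 0.00809) and 1.1 ± 0.32 (BH-adjusted p = 0.0161). Crmp1 rose by 0.51 ± 0.15 (BH-adjusted p = 0.0245) and 0.59 ± 0.15 (BH-adjusted p = 0.0101). Dpysl5 rose from 4.63, 6.48, 4.91 and 3.02 CPM in vehicle mice to 8.99, 19.4, 7.99 and 27.3 at 24 h and 21.3, 12.4, 17.9 and 9.17 at 48 h (7-day mice held 3.81, 12.7, 5.02 and 19.3). Its log2 fold change was 1.74 ± 0.49 (BH-adjusted p = 0.0179) at 24 h and 1.68 ± 0.49 (BH-adjusted p = 0.018) at 48 h. Dpysl4 fell from 37.6, 41.4, 42 and 38.9 CPM to 13.6, 21.9, 17.9 and 15.2 at 24 h and 14.8, 24.6, 16.4 and 16.5 at 48 h (7-day mice held 55, 11.2, 56.9 and 18.3). Its log2 fold change was -1.22 ± 0.38 (BH-adjusted p = 0.0261) at 24 h and -1.15 ± 0.38 (BH-adjusted p = 0.029) at 48 h. The call of Dpysl5 ended at 24 h without vehicle mouse 4 or 24 h mouse 4 and at 48 h without vehicle mouse 4 (adjusted p up to 0.0782 and 0.0531). Dpysl4 kept its call in 4 of 8 fits at 24 h, ending without vehicle mouse 2 or 3 or 24 h mouse 1 or 4, and in 1 of 8 at 48 h, without 48 h mouse 2 (up to 0.0712 and 0.07). With the share of CT010467.1 as a covariate both signs turned, for Dpysl5 to -0.492 and -0.618 and for Dpysl4 to 0.713 and 0.835. None of these values passed. Nck2, an adaptor that binds phosphorylated Eph receptors and ephrin-B, fell from 44.3, 34.3, 49.2 and 34.8 CPM to 14.5, 21.7, 18.5 and 17.2 at 24 h and 19.6, 15.1, 15.9 and 24.7 at 48 h (7-day mice held 50.1, 18.4, 37.8 and 17.2). Its log2 fold change was -1.18 ± 0.30 (BH-adjusted p = 0.0113) at 24 h and -1.11 ± 0.30 (BH-adjusted p = 0.0119) at 48 h, and kept its calls in 8 of 8. With that covariate it was -0.064 and 0.058.

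At 7 days no member passed against vehicle with edgeR, where 0 of all tested genes passed as well. In all, 11 members had an unadjusted p below 0.05 (17.5%, against 16.8% of all tested genes), and DESeq2 called 4 (6.35%, against 4.44% of all genes with an adjusted p). The 3 members with the smallest p were Epha6 (1.14 ± 0.29, BH-adjusted p = 0.0988), Slit3 (1.34 ± 0.37, BH-adjusted p = 0.109) and Unc5d (1.03 ± 0.32, BH-adjusted p = 0.128). In Epha6 all 4 mice were above all vehicle mice. Slit3 and Unc5d had 7-day mice 2 and 4 far above the vehicle range, mouse 3 above it by less, and mouse 1 within or below it. The groups did not overlap for 3 members higher, Epha6, Nrp2 and Sema5b, and for 1 lower, Sema3c, beside 2.81% and 3.04% of all tested genes. Nrp2, a neuropilin for class 3 semaphorins, held 18.6, 10.8, 18.8 and 14.2 CPM in vehicle mice and 37.8, 21.1, 21.7 and 20.6 at 7 days (0.7 ± 0.33, BH-adjusted p = 0.288).

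The 7-day mice differed among themselves in the members that had changed earlier. Of the 18 members that passed at 24 h, 16 were beyond the vehicle range in the same direction in mouse 2 and 16 in mouse 4, but 5 in mouse 1 and 6 in mouse 3. Of the 20 that passed at 48 h the numbers were 18 and 18 in mice 2 and 4, and 4 and 5 in mice 1 and 3. For the 24 h members these are 27.8%, 88.9%, 33.3% and 88.9% in mice 1 to 4. Of all 4346 genes that passed at 24 h it was 26.4%, 94.9%, 30.4% and 92.5%. For the 48 h members the shares were 20%, 90%, 25% and 90%, and for all 5395 genes 25%, 93.5%, 30% and 92.4%. The split of the mice is therefore not particular to guidance genes. All these genes were called against the same 4 vehicle mice. For the 16 members higher at 24 h or 48 h, the middle value of the log2 difference to the vehicle mice was 0.12, 0.88, 0.19 and 0.92 in mice 1 to 4; for the 8 lower members it was 0.17, -0.74, -0.19 and -0.74. Epha6 was above the vehicle mean in all 4 mice, by 0.98, 1.35, 0.92 and 1.23, while Sema7a was at -0.62, 1.74, -1.58 and 1.79. Plxnb1 was at 0.15, 0.27, -0.21 and 0.88. Mice 2 and 4 are also those with the higher CT010467.1 share, Camk2a level and striatal marker sum given above, and with the lower sums of the other 6 excitatory markers. The part of these measures was not tested. Leaving out mouse 1 gave 4 of 64 members past the threshold at 7 days (6.25%, against 7.26% of all tested genes) and leaving out mouse 3 gave 5 (7.81%, against 6.28%), with Epha6, Slit3 and Unc5d among them in both cases.

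**Figure D5:**
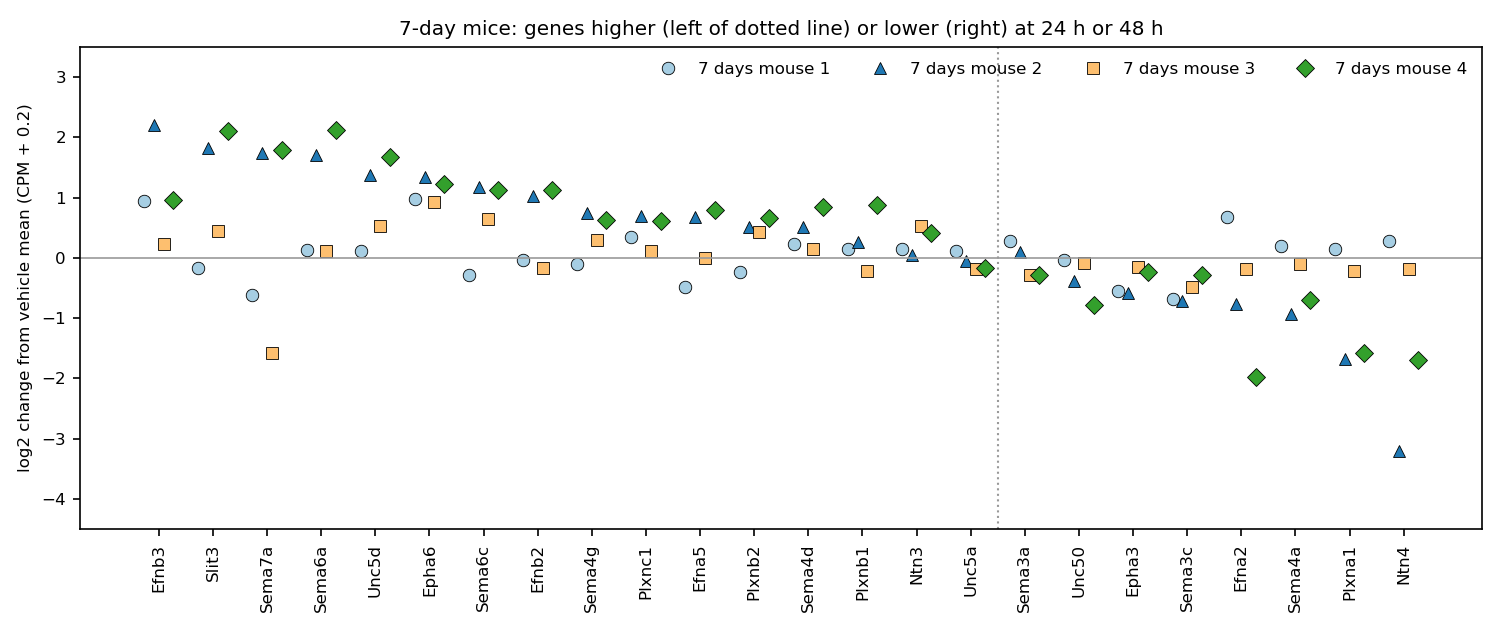
Log2 change of each 7-day mouse from the mean of the 4 vehicle mice (of log2 CPM plus 0.2) for the 24 members that passed at 24 h or 48 h; 16 higher members stand left of the dotted line and 8 lower ones right of it. Mice 2 and 4 have medians of 0.88 and 0.92 over the higher members, mice 1 and 3 of 0.12 and 0.19, and Sema7a is below 0 in mice 1 and 3.

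Between DOI times no member passed with edgeR, beside 0 of all tested genes from 24 h to 48 h, 0.00557% from 24 h to 7 days (all of it higher) and 0 from 48 h to 7 days. From 24 h to 48 h 1 member, Plxna4, had an unadjusted p below 0.05 (1.59%, against 1.88% of all tested genes), and DESeq2 called 0. From 24 h to 7 days 11 members had one (17.5%, against 14.2%; DESeq2 called 2, or 3.23%, against 2.16% of all genes) and from 48 h to 7 days 10 (15.9%, against 16.5%; DESeq2 called 3, or 5.17%, against 3.15%). The smallest p in both was that of Plxnb1, whose log2 fold change was -1.32 ± 0.35 (BH-adjusted p = 0.141) from 24 h to 7 days and -1.92 ± 0.35 (BH-adjusted p = 0.125) from 48 h to 7 days. For Ntn4 the values were 1.84 ± 0.62 (BH-adjusted p = 0.192) and 2.52 ± 0.65 (BH-adjusted p = 0.132). Without 7-day mouse 2, or without mouse 4, 1 member passed against 24 h (1.36% and 1.67% of all tested genes) and 2 against 48 h (2.14% and 2.37%).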

How the data were processed

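The deposited files hold raw read counts per gene, 1 file per library, counted by the authors with featureCounts 2.0.0 over exons without regard to strand, on a GRCm38 annotation, per the file headers. Trim Galore 0.6.5 and Bowtie2 2.4.1 are named in the submitters' processing notes without a role; the RNA aligner is not given in the sources used here. The H3K27ac and input libraries were not analysed here. In the headers of 3 mice (24 h mouse 1, 48 h mouse 2 and 7-day mouse 2) the mouse number differs from the label, while the group agrees in all 32 libraries; labels were followed.

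The 2 libraries of a mouse were summed. Genes were kept by filterByExpr (17941 of 55401), scaled by TMM and tested with edgeR 4.0.16 (R 4.3.3, limma 3.58.1) by glmQLFit and glmQLFTest. All 4 groups were fitted together, with 12 residual degrees of freedom and Benjamini-Hochberg adjustment over all tested genes. A prior count of 2 entered the log2 CPM behind the correlation of mouse deviations, not this fit. Adjusted p-values are from this fit, except those given for a fit with 1 mouse left out or another setting, which were adjusted within that fit. They come from tests of a group difference against the spread between mice, which this fit estimates over all 4 groups. SE is a standard error of the log2 fold change back-calculated from the test. It is the absolute log2 fold change divided by the square root of the F statistic. CPM are counts over the TMM-scaled total; CPM per kb divides by the exon length in the file. The level of 3 counts covers counting error only, since reads carry no molecular identifiers. The script was tested on simulated data first.

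Values in every mouse are given for the 5 members with the largest fold change in each direction among those past the threshold, for the member of each family with the highest vehicle CPM per kb, and, where none passed, for the 3 with the smallest p. Of the partner lists, the 2 genes with the largest fold change in each direction were named at each time. Other genes named were chosen after their values were seen. The members and lists were chosen with earlier results of these data known. Alternatives were RLE factors, totals alone, DESeq2 1.42.0, other filters, 1 library per mouse, only the groups compared, a block by mouse number, a threshold of 0.1 and each mouse left out. Covariates for the share of CT010467.1, the mitochondrial share and the genes detected, thinned counts and a fit without the 3 mice named above were added after seeing the data.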

Additional observations from a re-analysis of the deposited data

Results flagged for a closer look

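In 188 groups of 4 mice (30 named genes, the family sums and the sum of all members) 10 had a highest or lowest mouse far from the other 3 by Dixon's 95% criterion, and chance gives about 1 in 20. At 24 h mouse 2 was the highest for Efnb3 (11.5 CPM, against 4.11 to 5.33 in the others), Efnb2 (42.4 CPM, against 26.8 to 29.1), Slit1 (48.5 CPM, against 33.8 to 35.4) and the summed ephrin-B ligands (59.8 CPM, against 35.4 to 37.0). At 48 h mouse 2 was the lowest for Sema3a (13.2 CPM, against 18.6 to 19.4) and the summed class 3 semaphorins (59.8 CPM, against 94.4 to 99.5). Also at 48 h, mouse 4 was the lowest for Sema6d (35.2 CPM, against 38.3 to 38.5) and mouse 3 the highest for the summed class 5 semaphorins (141.6 CPM, against 83.1 to 92.4). Among vehicle mice, mouse 3 was the highest for Ntn3 (41.1 CPM, against 30.3 to 32.1) and mouse 4 for the summed Robos (318.4 CPM, against 265.3 to 273.7).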

How the results depend on the processing

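The number of members past the threshold was 18 at 24 h, 20 at 48 h and 0 at 7 days. It became 31 at 24 h when only the groups compared were fitted (50%, against 36.7% of all tested genes). With a threshold of 0.1 it was 32 at 24 h and 1 at 7 days. DESeq2 called 4 members and 5 partners at 7 days (6.35% and 7.35%, against 4.44% of all genes). It called 2 members from 24 h to 7 days (3.23%, against 2.16%) and 3 from 48 h to 7 days (5.17%, against 3.15%). Without a filter these were 4, 2, 1 and 2. The all-gene shares for the threshold of 0.1 and for no filter are not given here, so those counts cannot be set against the background. With the share of CT010467.1 as a covariate, 0 members and 0 partners passed at 24 h and 48 h; with the mitochondrial share 6 members passed at 24 h, and 0 members and 0 partners at 48 h. With 1 mouse left out the 24 h comparison had 8 to 13 members past the threshold, the 48 h comparison 12 to 19 and the 7-day comparison 0 to 5. Between DOI times there were 0 to 1 (24 h and 7 days), 0 to 2 (48 h and 7 days) and 0 (24 h and 48 h). The partners had 20 to 29 at 24 h, then 28 to 33, and 0 to 10 in the 7-day comparison (10 without 7-day mouse 1, 8 without mouse 3). The cause of these changes was not tested.

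Mouse numbers do not pair the mice: the mean correlation of the deviations of same-numbered mice was -0.036 (24 pairs, -0.282 to 0.244). With the replicate block 15 members passed at 24 h, 17 at 48 h and 0 at 7 days, and 29, 36 and 0 partners. These counts are within 1.5 times those without the block. The share of all tested genes with the block is not given here, so these counts cannot be set against the background.

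Signs turned as follows (log2 fold change), and none of the turned values passed. Epha4 at 24 h became 0.009 with RLE factors and with DESeq2, 0.101 with totals, 0.038 with a stricter filter, 0.028 and 0.008 with library 1 or 2 alone, 0.017 with only the groups compared, 0.035 with thinned counts and 0.049 without the 3 mice with another header number. Plxna2 became 0.045 at 24 h and 0.052 at 48 h with totals, and at 48 h 0.016 with library 2 alone, 0.007 with the mitochondrial share and 0.025 without those 3 mice. Slit1 at 48 h became -0.037 without a filter and -0.006 with library 1 alone, and Epha4 at 48 h -0.409 with the mitochondrial share. With the share of CT010467.1 the 24 h values were Efna2 0.151, Efnb2 -0.256, Ephb6 0.072, Nrp1 -0.257, Plxna1 0.176, Plxna2 0.208, Sema4a 0.517, Sema7a -0.711, Dpysl4 0.713 and Dpysl5 -0.492. At 48 h they were Efna2 0.02, Efnb2 -0.1, Epha4 -0.501, Nrp1 -0.06, Plxna1 0.149, Plxna2 0.241, Robo2 -0.04, Sema4a 0.13, Sema7a -0.996, Dpysl4 0.835, Dpysl5 -0.618 and Nck2 0.058. With 1 mouse left out, Epha4 at 24 h ran from -0.104 to 0.074, Slit1 at 48 h from -0.079 to 0.127 and Plxna2 at 48 h from -0.109 to 0.026. Of the values of single called genes under other settings, 443 kept their direction and their side of the threshold, 91 lost the call and 12 turned; with 1 mouse left out 221 kept both, 91 lost the call and 0 turned. Of the values not called, 275 kept both, 34 gained a call and 27 turned under other settings; with 1 mouse left out 174 kept both, 10 gained a call and 8 turned. Sema4d, Sema4g, Sema6c, Plxnb2, Plxnc1, Unc5a and Epha3, named after their values were seen, were not refitted singly. The 8 members that were not tested had too few counts to pass the filter.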

Other observations

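The partner genes were counted by pathway, beside 24.2% of all tested genes called at 24 h and 30.1% at 48 h, and differences between the lists were not tested. Of 17 semaphorin and plexin partners 9 rose and 1 fell at both 24 h and 48 h, and of 14 Slit and Robo partners 6 rose and 2 fell at 24 h and 7 rose and 2 fell at 48 h. Of 11 Eph and ephrin partners 1 rose and 1 fell at 24 h and 4 rose and 2 fell at 48 h. Among them Adam10, a protease that cleaves ephrins, rose from 56.5 to 82.4 CPM in vehicle mice to 102 to 126 CPM at 24 h, by 0.73 ± 0.18 (SE, edgeR adjusted p = 0.00971). Of 17 tested netrin partners 5 rose and 3 fell at 24 h and 4 rose and 4 fell at 48 h. Neo1, the netrin receptor neogenin, rose by 0.73 ± 0.26 at 24 h and 0.81 ± 0.26 at 48 h (SE, edgeR adjusted p = 0.0492 and 0.0273), and Flrt3, an adhesion protein that binds Unc5 receptors, fell by 1.01 ± 0.24 and 0.89 ± 0.24 (adjusted p = 0.0079 and 0.0116). Of 9 tested co-receptors 2 rose and 2 fell at each time. Cntn2, a contactin of axons, rose from 20.5 to 28.5 CPM in vehicle mice to 51.3 to 75.2 at 24 h (1.40 ± 0.25, SE, edgeR adjusted p = 0.0026), while Cntn1, its relative, fell from 472 to 722 CPM to 187 to 355 (-0.98 ± 0.26, edgeR adjusted p = 0.014). These genes were singled out after their values were seen.

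Of the 6 pan-neuronal markers 2 rose and 1 fell at 24 h, and 3 rose and 1 fell at 48 h. Rbfox3, the gene of the sorted antigen NeuN, rose by 0.81 ± 0.20 and 0.82 ± 0.20 (SE, edgeR adjusted p = 0.0103 and 0.00775). Snap25, a synaptic vesicle fusion protein, fell by 0.58 ± 0.20 and 0.62 ± 0.20 (adjusted p = 0.0395 and 0.0257). Of the other marker genes, 2 of 7 excitatory ones rose at 24 h and 0 fell, with a median log2 fold change of -0.07. They were Camk2a (2.96 ± 0.56, SE, edgeR adjusted p = 0.00308) and Tbr1 (0.83 ± 0.27, adjusted p = 0.0347), and the other 6 markers without Camk2a summed to 270 to 331 CPM against 293 to 363 CPM in vehicle mice. At 24 h 1 of 8 inhibitory markers rose and 2 fell, 2 of 7 striatal markers fell, 1 of 8 oligodendrocyte markers rose and 1 fell, 1 of 5 oligodendrocyte precursor markers rose, 1 of 3 endothelial and mural markers rose, and none of 7 astrocyte or 7 microglia markers passed with edgeR (1 and 0 at an unadjusted p below 0.05). At 48 h 2 excitatory markers rose, 1 inhibitory marker rose and 1 fell, 1 striatal marker rose, 1 oligodendrocyte marker fell, and 1 oligodendrocyte precursor marker rose and 1 fell. No endothelial and mural, astrocyte or microglia marker passed at 48 h (1, 2 and 2 unadjusted). Summed levels over the 16 mice ran from 13.9 to 35.6 CPM for oligodendrocyte precursor and 1738 to 3241 CPM for inhibitory markers.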
